A study of Mus musculus with 6 samples.

Results

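The genes described here are 8 enzymes that edit or release the heparan sulfate coat of cells or cut other surface and matrix proteins, and 2 inhibitors of the proteases among them, namely Hpse, Sulf1, Sulf2, Adam10, Adam17, Mmp2, Mmp14, Mmp15, Timp1 and Timp3. They were chosen by name, as probes whose RefSeq transcript belongs to one of these genes, and all 10 had a probe and were among the 32456 genes and unnamed probes tested. Lung RNA came from 6 male C57BL6 mice, 10 weeks old, each hybridised to its own Agilent array. Every mouse was fasted for 16 h and then given lipopolysaccharide (LPS), a bacterial endotoxin, into the peritoneum at 20 mg/kg, and lungs were taken 30 h after LPS. Recombinant antithrombin at 750 IU/kg was given to 3 mice, and saline to the other 3, at 3 h and at 24 h. All groups therefore carried endotoxin, and no mouse without it was analysed here. Values are log2 signals less the 75th percentile of the array, so a difference of 1 is a doubling, and errors are SD over 3 mice unless named otherwise.

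The heparan sulfate proteoglycans of the endothelial surface consist of a core protein with long sulfated chains, and antithrombin binds to sites on these chains. Heparanase cuts the chains, the sulfatases remove 6-O-sulfate groups from them, and sheddases of the ADAM and matrix metalloproteinase families cut core proteins and other surface proteins from the membrane. The tissue inhibitors of metalloproteinases (TIMPs) bind and block these proteases. Release of this coat, the glycocalyx, is a known feature of lung injury in endotoxin models.

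Per array, 69.8% to 72.1% of probes were detected well above background, with 0 saturated spots. The 9 alveolar type 2 markers, among them the surfactant genes Sftpc and Sftpb, were well above background on all 6 arrays, as the lung label requires. On the first principal component of all tested genes, saline mouse 2 lay at 7.86, between saline mice 1 and 3 (-48.3 and -62.4) and the antithrombin mice (24.9 to 49.5). Results are therefore also given without that mouse, although leaving out the saline mouse nearest the other group widens the gap between groups by itself.

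The start-site windows of the 3 genes on which the account below turns most are shown first, from 250 bases before to 50 after the annotated start, as RefSeq gives them for build GRCm38.p6. Hpse and Timp3 had the smallest p-values of the set, and Timp1 is the other inhibitor. Windows were at hand for 8 of the 10 genes. Capitals mark the GC box GGGCGG (or its complement) in Hpse and Timp3, and the letters TGAGTAA, a variant of the AP-1 motif, in Timp1. Hpse lies on the minus strand (chr5:100719667-100719966), Timp1 on the plus strand (chrX:20869916-20870215) and Timp3 on the plus strand (chr10:86300162-86300461).
Hpse: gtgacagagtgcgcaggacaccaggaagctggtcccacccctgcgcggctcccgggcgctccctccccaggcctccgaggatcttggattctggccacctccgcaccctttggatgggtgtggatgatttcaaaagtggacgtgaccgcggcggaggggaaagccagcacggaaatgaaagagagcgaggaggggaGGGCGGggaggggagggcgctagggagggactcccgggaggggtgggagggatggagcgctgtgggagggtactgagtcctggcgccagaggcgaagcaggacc
Timp1: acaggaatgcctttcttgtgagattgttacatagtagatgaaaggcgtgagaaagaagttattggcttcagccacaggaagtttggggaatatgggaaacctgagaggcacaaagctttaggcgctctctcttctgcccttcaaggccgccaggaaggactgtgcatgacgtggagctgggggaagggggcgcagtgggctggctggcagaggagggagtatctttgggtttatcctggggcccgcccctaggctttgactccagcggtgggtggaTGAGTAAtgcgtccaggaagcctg
Timp3: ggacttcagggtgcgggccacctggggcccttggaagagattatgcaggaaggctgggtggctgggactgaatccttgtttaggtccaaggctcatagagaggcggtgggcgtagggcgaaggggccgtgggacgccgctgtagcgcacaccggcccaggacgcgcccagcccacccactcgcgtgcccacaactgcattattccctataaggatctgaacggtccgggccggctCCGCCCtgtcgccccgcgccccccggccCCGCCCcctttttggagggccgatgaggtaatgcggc

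On both strands, the AP-1 motif TGANTCA was in none of the windows of these 8 genes and in 7.81% of all 32851 windows of that length, and TGAGTAA was in that of Timp1, 27 bases after the start, and in 2.68% of all windows. The GC box was in 35.7% of all windows, with 1 match in Hpse, 1 in Timp1 and 2 in Timp3. Matches are letters only, and no binding was measured.

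The comparison asks which transcripts of this machinery differ in endotoxin-exposed lung when antithrombin is given afterwards. No gene of the set passed the adjusted threshold of 0.05 (limma, Benjamini-Hochberg over all genes tested), as was so for nearly all of the array, where 0.00616% of genes passed. Without adjustment, at p under 0.05, heparanase was higher and Timp3 was lower after antithrombin. That is 1 of 10 genes higher, where 8.73% of all genes were, and 1 of 10 lower, where 12.9% were, so the set lay near the background in both directions. The median log2 difference was -0.20 over the 10 genes, -0.10 over the 8 enzymes, -0.33 over the 2 TIMPs and -0.05 over all genes tested. All 10 genes were well above background on all 6 arrays, so none of these values rests on signal near background. No gene of the set differed by as much as 1 log2, and for 8 of the 10 the 95% interval lay within 1 log2 either way. The exceptions were Hpse, whose interval reached 1.12, and Mmp2, whose interval reached -1.03.

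**Figure D1:**
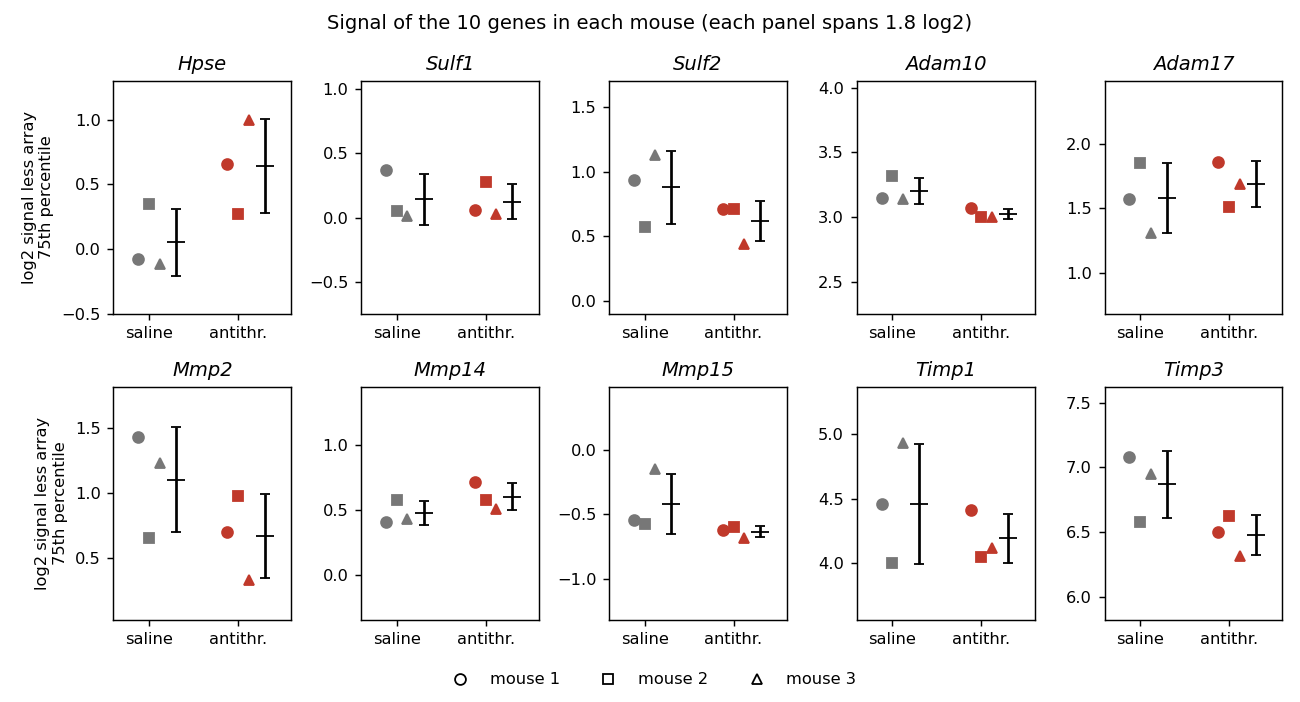
Log2 signal less the 75th percentile of the array for each of the 10 genes, 1 panel a gene with 1.8 log2 on each vertical axis, grey for saline and red for antithrombin, with mouse number by symbol and mean with SD (n = 3) in black. The groups parted without overlap in Adam10 and Mmp15, and in Hpse, Mmp2 and Timp3 saline mouse 2 (grey square) lay among the antithrombin mice.

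Heparanase, the endoglycosidase that cuts heparan sulfate chains, stood at -0.08, 0.35 and -0.12 in the saline mice and at 0.66, 0.27 and 1.00 in the antithrombin mice. Antithrombin mouse 3 was the highest and antithrombin mouse 2 lay below saline mouse 2, so the groups overlapped. The means were 0.05 ± 0.26 (SD, n = 3) after saline and 0.64 ± 0.37 (SD, n = 3) after antithrombin, a log2 difference of 0.59 (SE 0.22, 95% interval 0.07 to 1.12). This is a level 50.8% higher, with an interval from 4.88% to 117%, with an adjusted p of 0.199 (limma), and 16% of all genes had a smaller p. In whole lung, more cells that carry the transcript and more transcript per cell cannot be told apart, here and below.

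A second, dimmer Hpse probe stood at -3.71, -3.51 and -3.92 after saline and at -3.23, -3.65 and -3.33 after antithrombin. It again overlapped through antithrombin mouse 2, and its log2 difference was 0.31 (SE 0.16). The Hpse difference kept its sign under all 18 alternatives tried, from 0.41 without antithrombin mouse 3 to 0.78 without antithrombin mouse 2, with adjusted p between 0.0867 and 0.427 (limma). By row of the array on the slide it was 0.33 in the row with mice 1 and 2 of each group and 1.12 in the row with mouse 3 of each.

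The sulfatases edit the chains without cutting them. Sulf1 stood at 0.37, 0.05 and 0.01 after saline and at 0.06, 0.28 and 0.03 after antithrombin. The groups lay over each other, and the log2 difference of -0.03 (SE 0.14, 95% interval -0.36 to 0.31, adjusted p = 0.925, limma) turned to 0.09 without saline mouse 1, to 0.01 without antithrombin mouse 1 and to 0.02 without antithrombin mouse 3. Sulf2 stood at 0.94, 0.57 and 1.13 after saline and at 0.71, 0.71 and 0.44 after antithrombin. Saline mice 1 and 3 were above every antithrombin mouse and saline mouse 2 was among them. The log2 difference of Sulf2 was -0.26 (SE 0.17, 95% interval -0.67 to 0.15, adjusted p = 0.396, limma). Leaving out saline mouse 2 gave -0.41, and leaving out saline mouse 3 gave -0.14.

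Adam10 and Adam17 are the membrane proteases that release many receptors, ligands and syndecans. Adam10 stood at 3.15, 3.32 and 3.14 after saline and at 3.07, 3.00 and 3.00 after antithrombin. Each antithrombin mouse was below each saline mouse, by a small step, and the log2 difference was -0.18 (SE 0.11, 95% interval -0.43 to 0.08, adjusted p = 0.355, limma). A second, much dimmer Adam10 probe gave -0.04 (SE 0.13), with overlapping groups, so the separation was seen with 1 of 2 probes. Adam17, also known as the tumour necrosis factor converting enzyme, stood at 1.57, 1.85 and 1.31 after saline and at 1.86, 1.51 and 1.69 after antithrombin. The groups overlapped, with a log2 difference of 0.11 (SE 0.17, 95% interval -0.29 to 0.51, adjusted p = 0.718, limma) that became -0.02 when saline mouse 3 was left out and 0.25 when saline mouse 2 was. A second, dimmer Adam17 probe gave 0.41 (SE 0.17), so the 2 probes of this gene differed in size though not in sign.

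Mmp2, gelatinase A, is secreted as a proenzyme that Mmp14 activates at the cell surface. Mmp2 stood at 1.43, 0.65 and 1.23 after saline and at 0.70, 0.98 and 0.33 after antithrombin. Saline mice 1 and 3 were the highest of the 6, and saline mouse 2 lay below antithrombin mice 1 and 2. The means were 1.10 ± 0.41 (SD, n = 3) and 0.67 ± 0.33 (SD, n = 3), with a log2 difference of -0.43 (SE 0.25, 95% interval -1.03 to 0.17, adjusted p = 0.343, limma). Leaving out saline mouse 2 gave -0.66 (adjusted p = 0.0996, limma), leaving out saline mouse 1 gave -0.27 and leaving out antithrombin mouse 3 gave -0.26, and by row on the slide it was -0.20 and -0.90.

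The membrane-anchored Mmp14 and Mmp15 differed less. Mmp14 stood at 0.41, 0.58 and 0.43 after saline and at 0.72, 0.58 and 0.51 after antithrombin, and the log2 difference was 0.13 (SE 0.11, 95% interval -0.14 to 0.40, adjusted p = 0.501, limma). It had the narrowest range of the set over the 6 mice, 0.31 log2. Mmp15 stood at -0.54, -0.57 and -0.15 after saline and at -0.62, -0.60 and -0.68 after antithrombin. The groups did not overlap, but the gap between saline mouse 2 and antithrombin mouse 2 was far smaller than that between saline mouse 3 and the other saline mice. The log2 difference of -0.22 (SE 0.14, 95% interval -0.55 to 0.12, adjusted p = 0.394, limma) was -0.08 without saline mouse 3. Adam10 and Mmp15 were the 2 of 10 genes whose groups did not overlap with antithrombin lower, where 18.1% of all genes did so, and 0 of 10 parted with antithrombin higher, where 10.7% did.

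**Figure D2:**
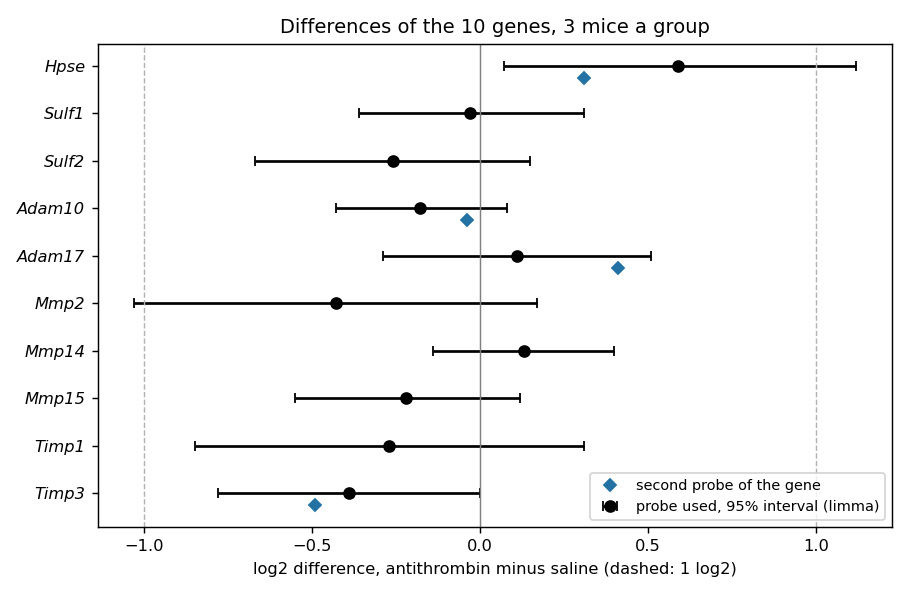
Log2 difference, antithrombin minus saline, of each of the 10 genes with its 95% interval from limma (black circles and bars) and the difference of the second probe of 4 genes (blue diamonds), with dashed lines at 1 log2 either way. The intervals of Hpse and Timp3 lie on 1 side of 0, that of Timp3 only just, and those of the other 8 genes cross 0.

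The inhibitors were both lower in mean after antithrombin, without passing the adjusted threshold. Timp3, which binds to the matrix and blocks Adam17 as well as matrix metalloproteinases, stood at 7.08, 6.58 and 6.95 after saline and at 6.50, 6.62 and 6.31 after antithrombin. Saline mice 1 and 3 were above every antithrombin mouse, and saline mouse 2 lay just below antithrombin mouse 2. The means were 6.87 ± 0.26 (SD, n = 3) and 6.47 ± 0.16 (SD, n = 3), a log2 difference of -0.39 (SE 0.16) or a change of -23.9% in level (95% interval -41.9% to -0.26%). The adjusted p was 0.228 (limma), and 21.2% of all genes had a smaller p.

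The second Timp3 probe, about as bright as the first, stood at 6.58, 6.19 and 6.45 after saline and at 5.91, 6.03 and 5.82 after antithrombin. There the groups did not overlap, and the log2 difference was -0.49 (SE 0.14). Timp3 kept its sign under all 18 alternatives, from -0.54 without saline mouse 2 (adjusted p = 0.0601) to -0.29 without saline mouse 1, and by row on the slide it was -0.27 and -0.64.

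Timp1, the secreted inhibitor that many cells induce in inflammation, stood at 4.46, 4.0 and 4.93 after saline and at 4.41, 4.05 and 4.12 after antithrombin. Saline mouse 3 was the highest of the 6 and saline mouse 2 the lowest, so the saline mice spanned all of the antithrombin mice. The saline SD of 0.47 was the largest of the set, and the log2 difference was -0.27 (SE 0.24, 95% interval -0.85 to 0.31, adjusted p = 0.524, limma). Leaving out saline mouse 2 gave -0.50 and leaving out saline mouse 3 gave -0.04, and by row on the slide it was 0.00 and -0.82.

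Saline mouse 2 bore on most of these values. It lay inside the range of the antithrombin mice for 7 of the 10 genes, where it did so for 42.1% of all genes, and it was the saline mouse nearest the antithrombin mean for 8 of the 10, against 52.5% of all genes. The SD was larger after saline than after antithrombin in 8 of the 10 genes, against 62.9% of all genes. Without that mouse 1 of 10 genes of the set, Hpse, was higher at p under 0.05 without adjustment, where 13.5% of all genes were, and 4 of 10, Sulf2, Mmp2, Timp1 and Timp3, were lower, where 18.3% were. Still 0 of 10 passed the adjusted threshold in that comparison, while 5.88% of all genes passed with antithrombin lower and 4.65% with antithrombin higher (limma).

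**Figure D3:**
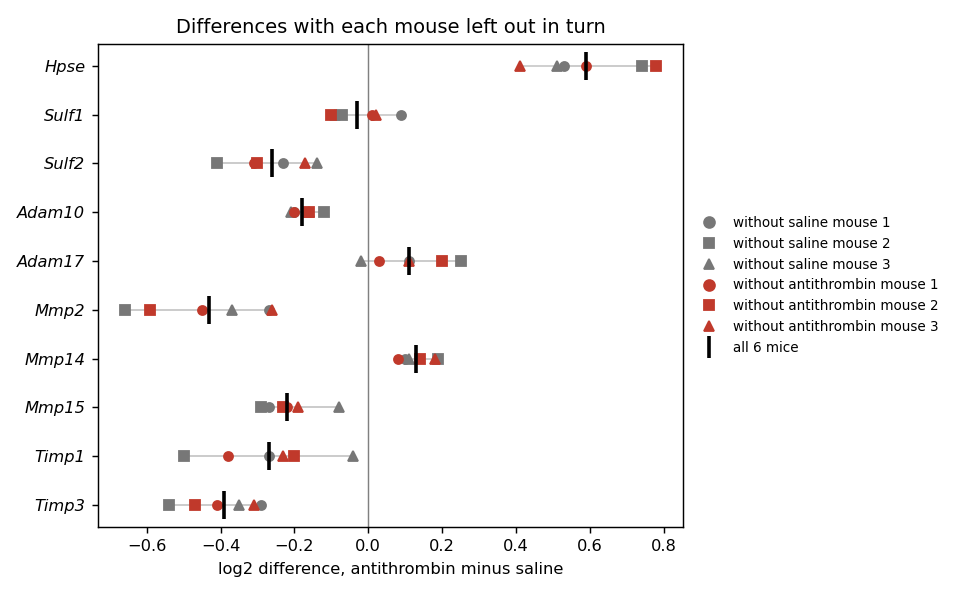
Log2 difference, antithrombin minus saline, of each of the 10 genes with all 6 mice (black bar) and with each mouse left out in turn (grey for a saline mouse, red for an antithrombin mouse, mouse number by symbol). Without saline mouse 2 (grey square) the differences of Hpse, Sulf2, Mmp2, Timp1 and Timp3 are wider than with all mice, and Sulf1 and Adam17 have points on both sides of 0.

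The rest of the families were described with a list of 26 other matrix metalloproteinases, ADAM proteases, TIMPs and heparanase 2, of which 24 were tested. No gene of that list passed the adjusted threshold, and 6 were higher (8.73% of all genes) and 0 lower (12.9%) at p under 0.05 without adjustment (limma). The 6 were Mmp8, Mmp9, Mmp12, Mmp19, Mmp25 and Adam8. The median log2 difference was 0.04. The neutrophil collagenase Mmp8 stood at 4.06, 4.30 and 3.41 after saline and at 5.01, 4.58 and 4.53 after antithrombin, a log2 difference of 0.79 (SE 0.26). Mmp25, a membrane-type protease of leukocytes, stood at -3.64, -2.37 and -3.78 after saline and at -1.96, -2.18 and -1.50 after antithrombin, a log2 difference of 1.39 (SE 0.39). In both the groups did not overlap, as for 10.7% of all genes with antithrombin higher, and saline mouse 2 was the saline mouse nearest the antithrombin mice. Mmp9, gelatinase B, had a log2 difference of 0.50 (SE 0.17, another probe 0.61) and Mmp19 one of 0.49 (SE 0.12, another probe 0.52), also without overlap. Without saline mouse 2, Mmp25 and Mmp9 passed the adjusted threshold (adjusted p = 0.0256 and 0.0425, limma). In that comparison 4.65% of all genes passed with antithrombin higher.

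Several of these proteases are products of neutrophils. Of 12 neutrophil markers 11 were tested and 10 were higher in mean, 5 of them at p under 0.05 without adjustment (limma; 8.73% of all genes), with a median log2 difference of 0.50. When saline mouse 2 was left out, 8 of the 11 were higher at that p (13.5% of all genes) and 3 passed the adjusted threshold (4.65% of all genes). Mmp8 and Mmp9 are on both lists. The summed signal of the neutrophil markers, in multiples of the 75th percentile of the array, ran from 930 to 1150 after saline and from 1090 to 1270 after antithrombin. Their mean shift was 0.35 in saline mouse 2, against -0.20 and -0.15 in saline mice 1 and 3 and 0.54 to 0.63 after antithrombin. The part of these cells in the values of Hpse and of the neutrophil proteases was not tested. Platelets are also a known source of heparanase. Platelet markers were higher in mean for 8 of 8, where 13968 of all 32456 genes were. At p under 0.05 without adjustment 0 of the 8 were higher (limma; 8.73% of all genes). They had a median of 0.98 and a summed signal of 31.4 to 48.7 after saline and 44.2 to 51.5 after antithrombin. Their mean shift was 1.23 in saline mouse 2, within the 0.67 to 1.6 of the antithrombin mice, against -0.60 and -0.63 in saline mice 1 and 3. With saline mouse 2 left out, the platelet markers had a median of 1.62, 7 of 8 were higher at that p (13.5% of all genes) and 2 passed the adjusted threshold (4.65%). Of 12 monocyte and macrophage markers 8 were higher in mean, with a median of 0.11 and a summed signal of 675 to 769 against 651 to 689. At p under 0.05 without adjustment 2 of the 12 were higher (limma; 8.73% of all genes) and 0 lower (12.9%). With saline mouse 2 left out, 3 were higher at that p (13.5%) and 1 passed the adjusted threshold (4.65%).

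Markers of the cells that line or support the air spaces differed in direction from one cell type to the next. Of 7 tested alveolar type 1 markers 6 were lower in mean, 4 of them at p under 0.05 without adjustment (limma; 12.9% of all genes), and without saline mouse 2, 4 passed the adjusted threshold (5.88% of all genes). Their summed signal ran from 317 to 350 after saline and from 237 to 276 after antithrombin. Of 10 fibroblast markers 7 were higher in mean and 3 lower, with a median of 0.17 and a summed signal of 176 to 231 against 183 to 213. Without saline mouse 2, 2 of the 10 passed the adjusted threshold with antithrombin lower (5.88% of all genes) and 0 with antithrombin higher (4.65%). Endothelial markers had a median of -0.12 over 10 and a summed signal of 282 to 342 against 250 to 308. Smooth muscle and pericyte markers were higher in mean for 7 of 9, with a median of 0.62 and a summed signal of 54.7 to 57 against 62.4 to 65.4. Of these 9, 6 were higher at p under 0.05 without adjustment (limma; 8.73% of all genes) and 6 parted without overlap (10.7%). Both counts include Lmod1, which was well above background on 3 antithrombin arrays and 0 saline arrays. It was thus tested only through the group where it was higher, and its calls carry no weight of their own. Without saline mouse 2, 5 of the 9 passed the adjusted threshold (4.65%). The part of any of these cells in the values of Timp1, Timp3 and Mmp2 was not tested.

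Of 16 genes that regulate the activation, transport or activity of these enzymes 15 were tested, and 4 were lower (12.9% of all genes) and 0 higher (8.73%) at p under 0.05 without adjustment (limma), with a median log2 difference of -0.19. Tspan15, a tetraspanin that accompanies Adam10 to the cell surface, stood at 2.01, 1.72 and 1.84 after saline and at 1.03, 1.01 and 0.58 after antithrombin. The groups lay well apart, where 18.1% of all genes did not overlap with antithrombin lower. The log2 difference was -0.98 (SE 0.16, adjusted p = 0.151, limma), although another Tspan15 probe gave 0.31. Tspan17, of the same group of tetraspanins, had a log2 difference of -0.41 (SE 0.14). Pcsk5, a proprotein convertase, stood at 2.16, 0.95 and 2.08 after saline and at 0.93, 0.93 and 0.06 after antithrombin. Saline mouse 2 lay just above antithrombin mice 1 and 2, and the log2 difference was -1.09 (SE 0.39), with -0.94 and -0.15 from its other probes. Sumf1, which makes the catalytic residue of sulfatases, had a log2 difference of -0.31 (SE 0.12). Without saline mouse 2, Tspan15, Tspan17 and Pcsk5 passed the adjusted threshold (adjusted p = 0.0327, 0.044 and 0.039, limma). In that comparison 5.88% of all genes passed with antithrombin lower.

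The proteoglycan core proteins on which these enzymes act showed 0 of 12 tested genes at p under 0.05 without adjustment (limma). Over all genes 8.73% were higher and 12.9% lower at that p. The median log2 difference of the 12 was -0.07. Syndecan 1, Sdc1, stood at 1.90, 1.84 and 2.31 after saline and at 1.77, 1.66 and 1.57 after antithrombin. Its groups did not overlap, as for 18.1% of all genes with antithrombin lower, and it was the only 1 of the 12 to part. The log2 difference was -0.35 (SE 0.15, adjusted p = 0.245, limma), with -0.29 and -0.24 from other probes. The glypicans Gpc3, Gpc5 and Gpc2 had log2 differences of -0.37, -0.29 and 0.32, each with overlap between groups. Without saline mouse 2, 1 of the 12 was higher (13.5% of all genes) and 3 were lower (18.3%) at p under 0.05 without adjustment.

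Among 25 genes listed for surface proteins that are shed, whichever protease cuts them, 2 were higher (8.73% of all genes) and 1 lower (12.9%) at p under 0.05 without adjustment (limma), with a median of -0.02. Tnf, the cytokine that Adam17 frees from the membrane, stood at -0.65, 0.33 and -0.68 after saline and at 0.63, 0.66 and 0.76 after antithrombin, a log2 difference of 1.02 (SE 0.27, another probe 0.80). Its groups parted, as for 10.7% of all genes with antithrombin higher, with saline mouse 2 the nearest of the saline mice. Without that mouse the Tnf difference was 1.35 and passed the adjusted threshold (adjusted p = 0.0238, limma), as 4.65% of all genes did with antithrombin higher. The interleukin 6 receptor gene Il6ra had a log2 difference of -0.39 (SE 0.15, another probe -0.25) and the growth factor gene Hbegf one of 0.42 (SE 0.20). Shedding itself is a protein event that transcript levels do not measure.

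**Figure D4:**
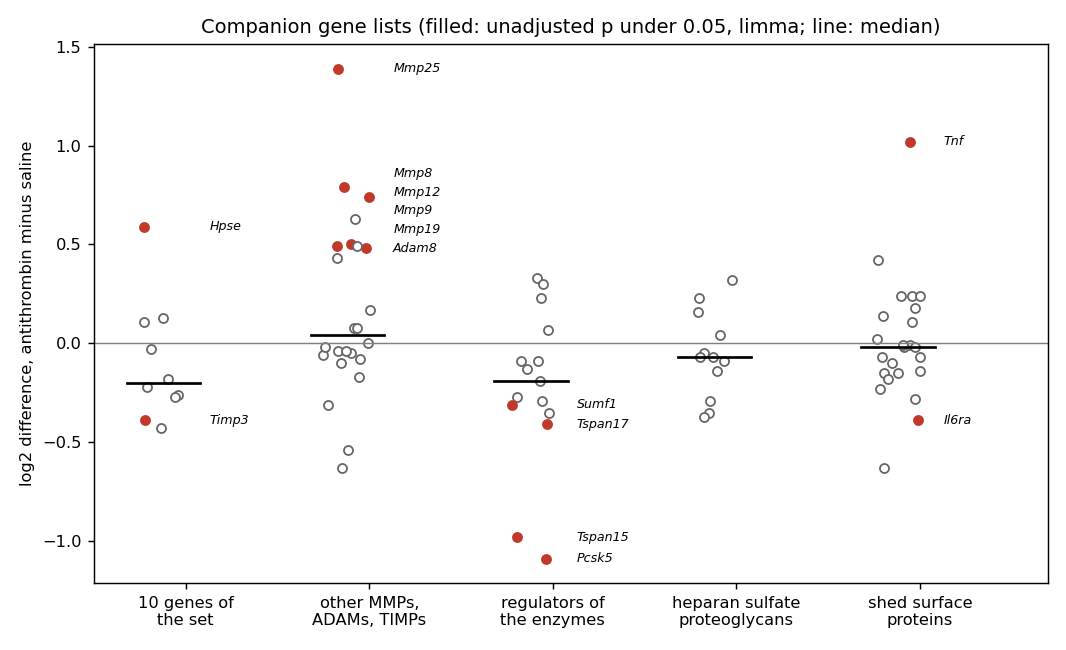
Log2 differences, antithrombin minus saline, of the 10 genes and of the tested genes of 4 related lists, 1 circle a gene, filled and named where the unadjusted limma p was under 0.05, with the list median as a line; 1 gene of the list of shed proteins is not drawn. Filled circles in the list of other proteases and inhibitors are all above 0 (Mmp25 at 1.39) and those in the list of regulators are all below 0 (Pcsk5 at -1.09).

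The genes whose values ran most like those of each of the 10 were found by the root mean square distance over the 6 mice, after the mean of each gene was removed, among 16585 named genes well above background on all arrays. With that many genes and 6 mice, close matches are common, and nothing is drawn from them about shared function. The nearest to Hpse were the chemokine gene Cxcl2 (0.068 log2) and Pigw (0.084), to Timp3 Cyp2j8 (0.018) and Irx2 (0.024), and to Timp1 AF067061 (0.068) and Vmn1r49 (0.099). The nearest to Sulf2 were Deptor (0.026) and the cathepsin gene Ctsl (0.027), and the nearest to Sulf1 were Kifc2 (0.034) and A830052D11Rik (0.045). For Mmp2 they were Atoh8 (0.068) and Ltbp1 (0.070), for Mmp14 Wdr6 (0.025) and Tmem214 (0.026), and for Mmp15 Wfdc2 (0.028) and Chd2 (0.032). For Adam10 they were Stk38 (0.014) and Nudcd3 (0.022), and for Adam17 Ten1 (0.025) and Tnfrsf12a (0.035). Within the set, the closest courses were those of Sulf2 with Mmp15 and of Sulf2 with Timp3, each at 0.12 log2, and of Mmp2 with Timp3 at 0.13 log2.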

How the data were processed

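Each deposited scanner file gives the intensity of every spot, made per the file headers with Agilent Feature Extraction 10.7.3.1, while version 9.1 stands in the submitters' processing notes. The signal used had its background subtracted by that software, and arrays were not scaled to each other. The authors' deposited table gives log2 values, and how its arrays were scaled is not given in the sources used here. Once a constant was removed from each probe and a shift from each array, it matched the log2 processed signals within 0.01 for 100% of values, and where the constant comes from is unknown (column medians -0.0369 to 0.0763).

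Main values were log2 signals after subtraction of the array's 75th percentile over 56605 non-control probes, without outlier spots. Accessions were matched to RefSeq transcripts of GRCm38.p6, which named 32994 probes. The brightest probe stood for a gene, and 32456 genes and unnamed probes that were well above background on at least 3 arrays were tested two-sided with limma 3.58.1 (lmFit, eBayes; R 4.3.3) and Benjamini-Hochberg adjustment. All arrays lay on 1 slide scanned on 1 date. The text names the 10 genes, the 4 smallest p of each related list and the 2 likest genes of each member. A gene that this rule took is not reported here. Mmp12 and Adam8 were named after their values were seen. The members and lists were chosen with earlier results of these data known. Alternatives changed background correction, scaling, filter, probes, variance model, weights, blocks and mice, or took the value table. Normexp (offset 50) used the median pixel signal, since the files hold no mean. The fit was tested on simulated data, where it recovered 48 of 100 genes changed 2-fold and 86 of 100 changed 4-fold. In each case 5 unchanged genes were called. The spread set in the simulation is not given here, so these counts are not read as the power of this comparison. Figures were drawn with matplotlib 3.10.9.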

Additional observations from a re-analysis of the deposited data

How the results depend on the processing

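With 3 mice a group the array count limits every value, and n counts mice. Over all genes 2 passed the adjusted threshold (limma). That count was 1 with normexp background correction, quantile normalisation, median scaling, no filter on dim probes, detection on all 6 arrays, every probe singly, a trended and robust variance or the slide row as a block, and it ran from 0 to 3415 with 1 mouse left out, the highest without saline mouse 2. No gene of the set passed in any of the 18 alternatives. Timp3, the 1 gene lower with an unadjusted p under 0.05, became 0 with quantile normalisation, median scaling, no filter or the slide row as a block, and the count ran from 0 to 4 with 1 mouse left out. The count of genes higher, 1, ran from 0 to 1. Saline mouse 2 gave the 4, and each of the other 5 mice, left out, gave 0 lower. The count higher was 0 without saline mouse 1, saline mouse 3, antithrombin mouse 1 or antithrombin mouse 3.

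The sign of the difference turned for Sulf1 without saline mouse 1 (0.09), antithrombin mouse 1 (0.01) and antithrombin mouse 3 (0.02), and for Adam17 without saline mouse 3 (-0.02). With 1 mouse left out Sulf1 ran from -0.10 to 0.09 and Adam17 from -0.02 to 0.25. The other 8 genes kept their sign throughout. The cause of these changes was not tested.

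With the mouse number as a replicate block, 0 genes passed the adjusted threshold, and no gene of the set was at an unadjusted p under 0.05 in either direction (0 higher, 0 lower). The numbers were not taken as pairs in the main fit. The deviations of same-numbered mice from their group means correlated at -0.00957, -0.164 and -0.276 across genes, none of them positive. With 3 mice a group these values cannot decide whether the numbers mark a shared handling. Mouse 3 of each group lay in a slide row apart from mice 1 and 2.

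Without saline mouse 2, a setting added for the related lists after seeing the data, the counts at an unadjusted p under 0.05 were 7 higher and 3 lower of 24 other proteases and inhibitors, 3 and 7 of 15 regulators, 1 and 3 of 12 proteoglycans, and 3 and 1 of 25 shed proteins, where 13.5% of all genes were higher and 18.3% lower.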

Other observations

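The remaining inhibitors of the family, named here after their values were seen, pointed in different directions. Timp2, which takes part in the activation of Mmp2 by Mmp14, differed by -0.31 on the log2 scale (adjusted p = 0.249, limma). Its groups did not overlap, as for 18.1% of all genes with antithrombin lower. The gap was smaller than the rounding, since saline mouse 2 and antithrombin mouse 2 both stood at 6.7. Timp4 differed by 0.63 (adjusted p = 0.251, limma), with overlap between groups. Reck, a membrane-anchored inhibitor, differed by 0.00. The regulators of Adam17 known as inactive rhomboids, likewise named after the fact, had opposite signs, with Rhbdf2 at 0.33 and Rhbdf1 at -0.27, neither at an unadjusted p under 0.05.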
